A study of Homo sapiens with 4 samples.

Results

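Genes for chromatin remodelling and histone-modifying enzymes were examined in human Huh-7 hepatocellular carcinoma cells 48 h after transforming growth factor beta (TGF-beta) was added and in untreated cells. The members are the genes whose platform symbol begins with that of a histone deacetylase, sirtuin, lysine demethylase, acetyltransferase or methyltransferase, a SMARC, CHD, bromodomain (BRD) or ARID protein, a DNA methyltransferase, a core subunit of Polycomb repressive complex 2 (PRC2), EP300 or CREBBP, with the Y-linked KDM5D left out. They number 97 of the 12165 genes measured, on 191 probe sets, and each gene is represented by the brightest of its probe sets. Of the 97, 94 are protein-coding. SUZ12P1, SMARCE1P2 and BRD7P3 are pseudogenes, and BRD3OS takes its name from the strand opposite BRD3, so these 4 entered through the start of their symbols. The deposited data are 4 Affymetrix arrays, 2 of TGF-beta-treated cells and 2 of untreated cells of the same line. The cells grew in medium with 10% heat-inactivated fetal bovine serum, and total RNA came from a confluent 10 cm dish. The sources used here do not state the dose. They also do not say whether each array stands for its own culture, and the spread behind every p-value may therefore be technical.

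Chromatin enzymes write, remove and read chemical marks on histones and DNA or move nucleosomes along DNA. Acetyltransferases such as EP300 and CREBBP open chromatin and serve as coactivators, also for the SMAD proteins that carry the TGF-beta signal into the nucleus. Deacetylases, Polycomb methyltransferases and DNA methyltransferases are known mostly for repression. ATP-driven remodellers of the SWI/SNF (also called BAF), ISWI and CHD families change nucleosome positions, and subunits of BAF such as ARID1A are recurrently mutated in liver cancer.

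The upstream promoter sequences of CHD9, KDM4B, KDM2A and SMARCA4 are shown because the account of the probe sets below turns on these genes, of which CHD9 passed the test and the other 3 did not. They were chosen after their values were seen, and further members also had several bright probe sets with values of 1 sign. The 250 bases before each gene's start are given 5′ to 3′, from RefSeq on GRCh38.p14, all on the plus strand. The regions are chr16:53054741-53054990 for CHD9, chr19:4968863-4969112 for KDM4B, chr11:67119013-67119262 for KDM2A and chr19:10960780-10961029 for SMARCA4. Capitals mark CAGAC or its reverse complement GTCTG, the short SMAD-binding box.

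CHD9: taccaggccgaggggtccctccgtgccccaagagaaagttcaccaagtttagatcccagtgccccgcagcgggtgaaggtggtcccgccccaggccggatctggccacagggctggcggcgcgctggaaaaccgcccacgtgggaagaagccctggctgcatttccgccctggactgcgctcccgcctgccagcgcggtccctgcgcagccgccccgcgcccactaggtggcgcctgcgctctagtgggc
KDM4B: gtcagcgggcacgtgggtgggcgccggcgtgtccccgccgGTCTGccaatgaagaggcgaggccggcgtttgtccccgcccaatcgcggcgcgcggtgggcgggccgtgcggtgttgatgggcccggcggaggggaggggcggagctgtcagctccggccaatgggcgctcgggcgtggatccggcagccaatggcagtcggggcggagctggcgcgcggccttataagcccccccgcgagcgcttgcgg
KDM2A: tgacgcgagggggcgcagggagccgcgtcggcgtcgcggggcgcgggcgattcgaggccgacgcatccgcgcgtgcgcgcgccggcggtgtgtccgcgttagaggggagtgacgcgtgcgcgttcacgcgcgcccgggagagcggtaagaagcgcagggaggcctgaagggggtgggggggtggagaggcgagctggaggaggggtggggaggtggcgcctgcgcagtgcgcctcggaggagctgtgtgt
SMARCA4: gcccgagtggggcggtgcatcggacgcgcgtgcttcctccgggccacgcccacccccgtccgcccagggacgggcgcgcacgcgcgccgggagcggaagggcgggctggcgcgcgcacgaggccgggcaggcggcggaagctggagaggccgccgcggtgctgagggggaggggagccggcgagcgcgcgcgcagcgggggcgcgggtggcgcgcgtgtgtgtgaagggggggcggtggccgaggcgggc

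Only KDM4B holds the short SMAD box in this window, once, 210 bases before the start. The box was present in 33 of the 82 member promoters found in the table (40.2%) and in 38% of all 35116 promoters of that length. The palindrome GTCTAGAC was in 0 of the 82 and in 0.182% of all. A GC-rich element that SMAD3 can bind, GGCGCC, which is its own reverse complement, was in 27 of the 82 (32.9%) and in 16.4% of all, and the windows of CHD9, KDM4B and KDM2A hold it once each. Member promoters were also richer in G and C, with a median of 68.2% against 58% in all promoters, and a median of 23 CpG dinucleotides against 11. The SMARCA4 window has 44 CpG dinucleotides, the KDM2A window 40, the KDM4B window 36 and the CHD9 window 22. CCAAT or ATTGG, the box bound by NF-Y, was in 24 of the 82 (29.3%) and in 32% of all, and the KDM4B window holds it 4 times. TATAAA or TTTATA was in 1 of the 82 (1.22%) and in 10.7% of all promoters. The set of all promoters was not limited to genes measured on the arrays, nor matched to the members in gene type or base content. Whether the differences belong to chromatin genes in particular was not tested. These matches describe letters, not binding sites.

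Values below are probe set intensities, and log2 fold changes are differences between the groups' mean log2 intensities, TGF-beta minus untreated. Median intensity over all probe sets was 51 and 50.7 on the TGF-beta arrays and 50.3 and 50.1 on the untreated arrays. The TGF-beta arrays differed from each other by a median absolute log2 value of 0.117 over the chromatin genes, the untreated arrays by 0.181, and a treated from an untreated array by 0.176 to 0.225. For all genes these differences were 0.115, 0.128 and 0.147 to 0.167. Hepatocyte products were bright. ALB (albumin) had intensities of 35745.5 and 35526.0 with TGF-beta and 33581.1 and 34262.5 without, and the summed intensity of 8 measured hepatocyte markers was 91239 to 93487 with TGF-beta and 84852 to 87626 without. Of the 8, APOA1 rose and TTR fell (adjusted p of 0.0378 and 0.047, limma). Of 5 leukocyte markers, PTPRC, CD3E, CD68 and ITGAM lay under the lower quartile of mean gene intensity (31.9), and CD14 rose, with 146.4 and 156.6 on the TGF-beta arrays and 75.6 and 75.4 on the untreated arrays (adjusted p = 0.0167, limma), so the summed intensity of the list was 254 to 270 against 185 to 195. Its part in the results below was not tested. Fibroblast markers summed to 7051 to 7565 with TGF-beta and 6993 to 7517 without, nearly all of it from LUM, and endothelial markers to 155 to 162 and 166 to 167, with 0 calls in either list (limma; at an unadjusted p under 0.05, 2 of 8 fibroblast markers, COL1A1 and DCN, and 1 of 5 endothelial markers, PECAM1, all lower).

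Of the 97 chromatin genes, 1 changed after TGF-beta at an adjusted p under 0.05 in limma, the remodeller CHD9, which fell. The share called over all genes was 1.22% (0.658% higher and 0.567% lower). With no adjustment, at a p under 0.05, 14 members lay higher and 8 lower, together 22.7% of the members, where 18.0% of all genes passed (9.35% higher and 8.60% lower). The groups did not overlap in 49 of the 97 genes (50.5%), 26 higher and 23 lower, beside 49.1% of all genes (23.3% higher and 25.9% lower). Both shares are near those of all genes. The members' log2 fold changes ran from -0.68 to 0.93 with a median of 0.04, against -0.0062 over all genes. Of the 97, 57 (58.8%) were positive, beside 48.6% of all genes. With each array centred on its median, 41 of 97 members were positive, beside 4023 of all 12165 genes. The members' median turned to -0.03, while the median over all genes moved to -0.08. Under quantile normalization the members' median was 0.04, with 56 of 97 positive, beside 6069 of all 12165 genes. The members' median thus stood slightly above that of all genes under each scaling. Without untreated array 1 it did not, at -0.01 against -0.0026 over all genes. The SD of the array medians of the chromatin genes within groups was 0.057. With trended, robust moderation of the same values limma called 6 members, CHD9 (adjusted p = 0.00884), KDM4B (0.0155), KDM2A (0.034), EP300 (0.0411), DNMT1 (0.0485) and SETDB1 (0.0485). In fits that leave out 1 array, the remaining array of that group is assumed to vary like the other group. Without untreated array 2, the genes KDM2A, SETDB1, EP300, CREBBP, BRD2 and DNMT1 passed beside CHD9, and without untreated array 1 KDM4B passed beside it. Without either TGF-beta array limma called 0 of all 12165 genes (1326 and 1563 at an unadjusted p under 0.05), so those fits say nothing about particular members.

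**Figure D1:**
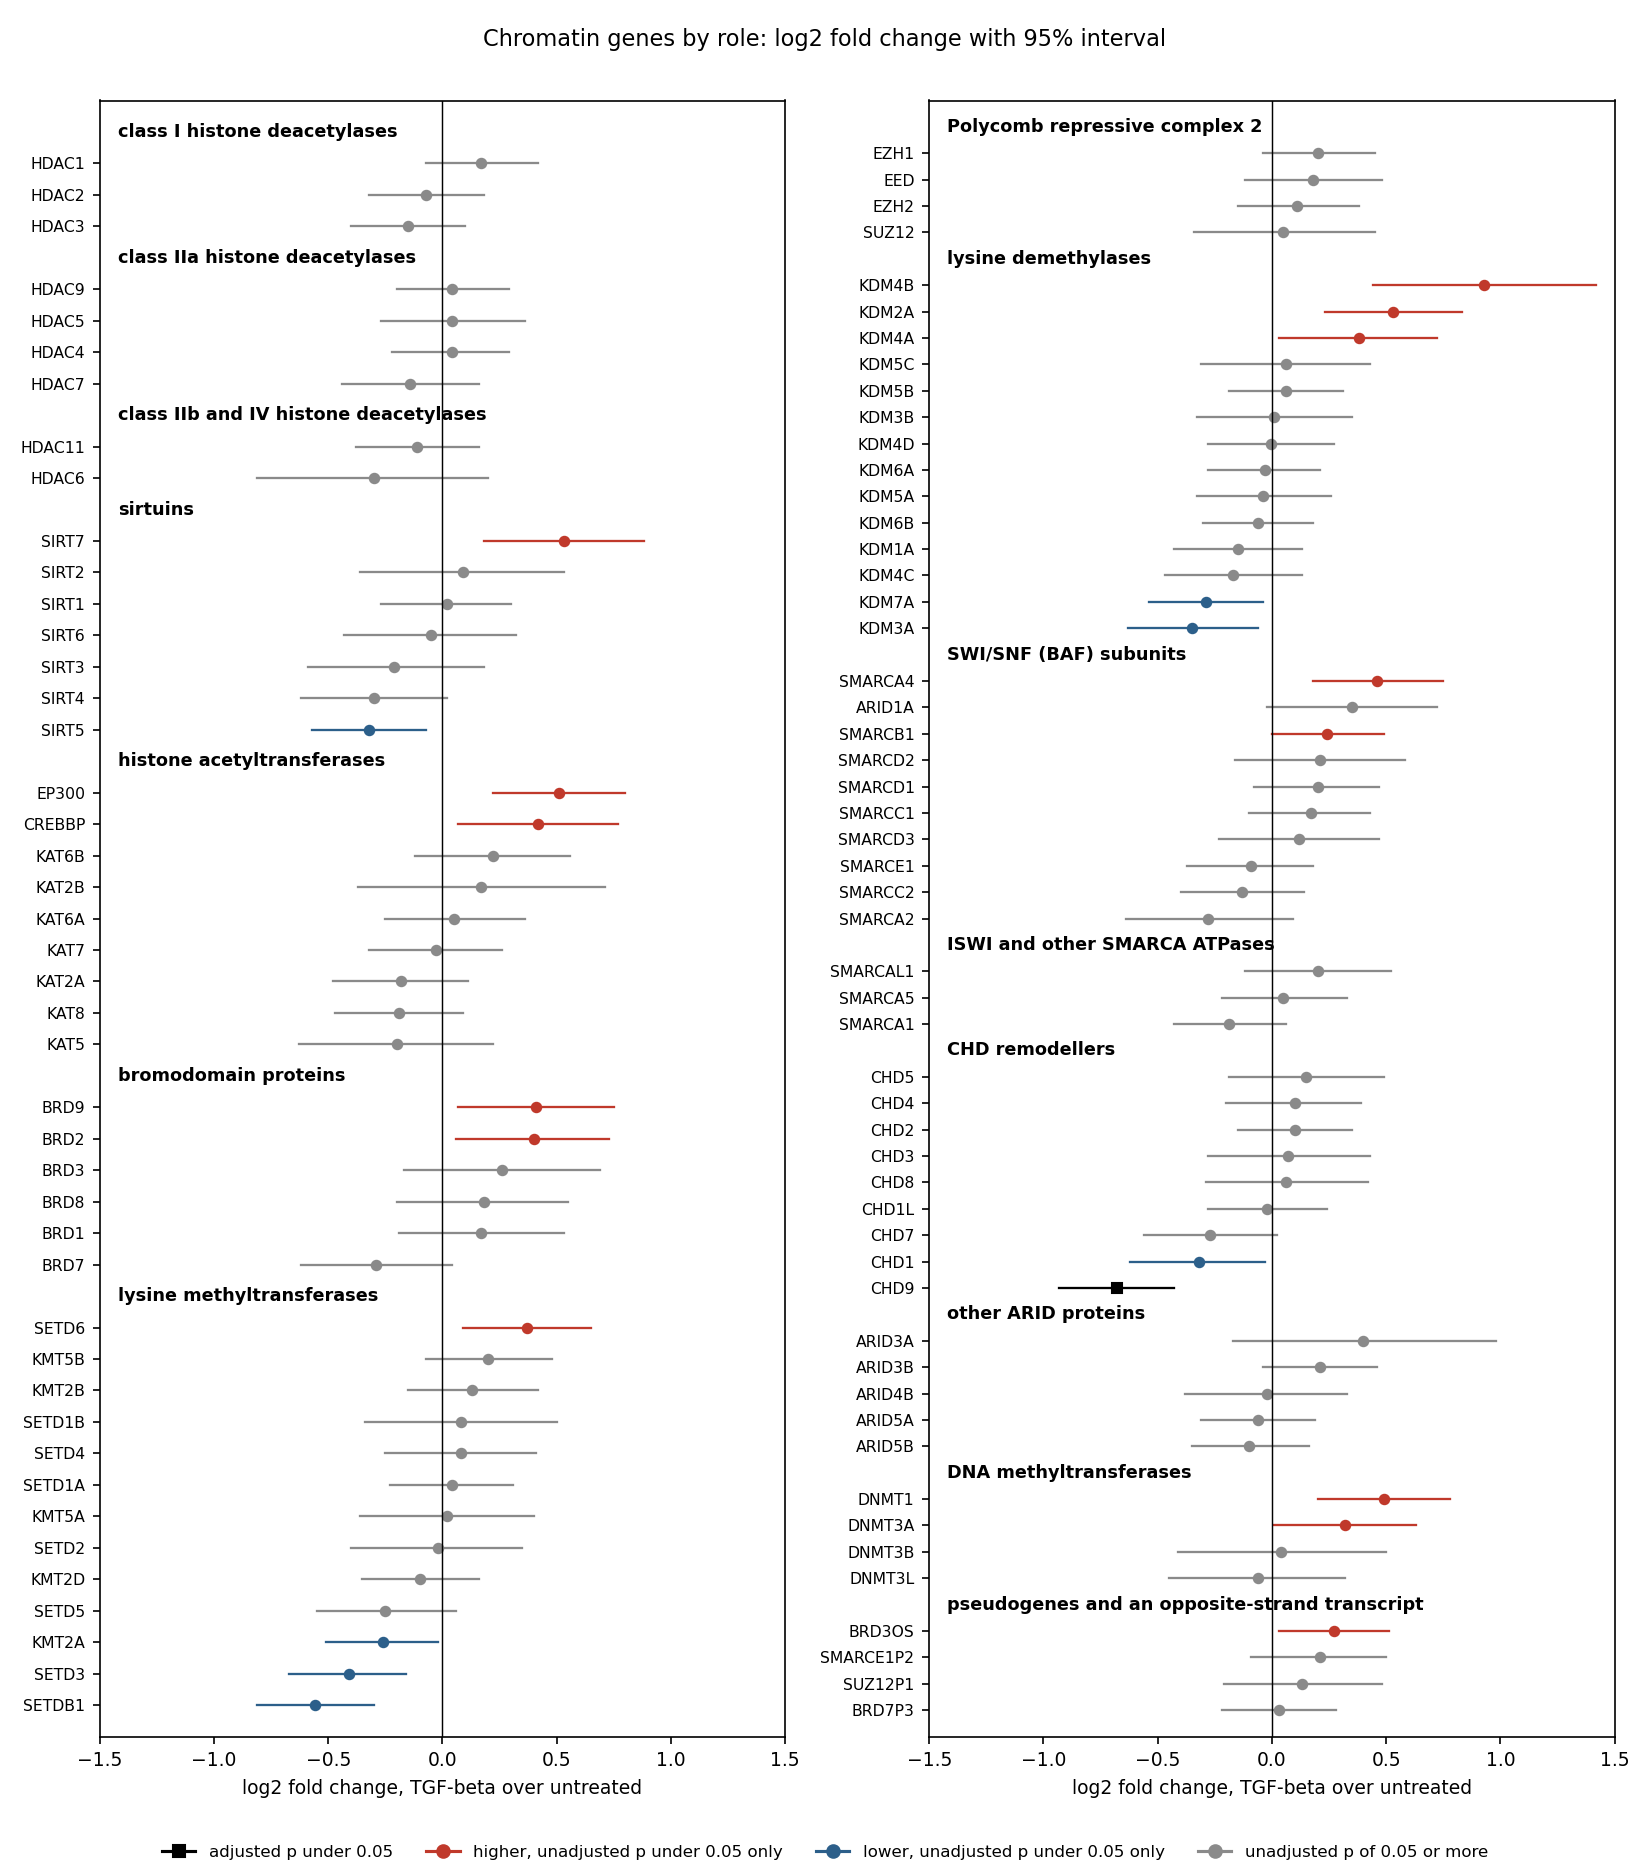
Log2 fold change (TGF-beta over untreated, x axis) of each of the 97 chromatin genes, grouped by role, with its 95% interval from the fit over all genes (2 arrays per group). CHD9, the square at -0.68, is the one gene with an adjusted p under 0.05, and red and blue circles mark the 14 higher and 7 other lower genes at an unadjusted p under 0.05.

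CHD9, an ATP-driven remodeller with chromodomains that is also known as a coactivator of nuclear receptors, had intensities of 388.1 and 409.5 on the TGF-beta arrays and 654.0 and 623.9 on the untreated arrays. The groups were far apart relative to the spread within each. It fell by 0.68 ± 0.11 on the log2 scale (SE, n = 2 arrays per group; adjusted p = 0.0397). A second probe set, on which the TGF-beta arrays had 110.8 and 125.9 and the untreated arrays 185.9 and 188.3, gave -0.66 ± 0.11, and the third, dim one (mean log2 intensity 4.44) gave -0.10 ± 0.12. The value of CHD9 was -0.64 without TGF-beta array 1 and -0.72 without TGF-beta array 2 (adjusted p of 0.297 and 0.225, in fits that called 0 of all genes by limma, with 1326 and 1563 at an unadjusted p under 0.05). The call was kept without untreated array 1 (-0.65) or 2 (-0.71). It was lost under quantile normalization (adjusted p = 0.053), with dim genes left out (0.0501) and with the mean of all probe sets (-0.48, adjusted p = 0.068). In such bulk RNA, fewer cells that express a gene and less RNA per cell cannot be told apart.

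The other 8 CHD genes did not pass. Of all 9, 22.2% had an unadjusted p under 0.05, beside 18.0% of all genes. CHD1, which binds methylated histone H3 and slides nucleosomes, was the other lower one at an unadjusted p under 0.05, with 464.5 and 421.0 after TGF-beta and 509.7 and 600.3 in untreated cells (-0.32 ± 0.13). CHD7, a remodeller of enhancers, had 74.2 and 68 against 79.1 and 92.5, again without overlap, at -0.27 ± 0.12. CHD4, the ATPase of the NuRD complex, had 330.8 and 364.5 against 297.8 and 353.6, so its groups overlapped, and its value was 0.10 ± 0.13 (95% interval -0.20 to 0.39). Its dimmest probe set gave 0.42. CHD2, CHD3, CHD5, CHD8 and CHD1L lay between -0.02 and 0.15.

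Among subunits of the SWI/SNF complex, limma called 0 of 10 genes. At an unadjusted p under 0.05, 2 were higher and 0 lower (20%, beside 18.0% of all genes). The shares of such short lists were not tested. Of the 10, 7 had positive values, also with median centring, where 1 was higher and 1 lower at that p. Over all genes 48.6% were positive, and 4023 of 12165 with median centring. SMARCA4 (BRG1), one of the alternative ATPases of the complex, had intensities of 744.1 and 622.7 on the TGF-beta arrays and 482.1 and 504.8 on the untreated arrays. The lower treated array lay above both untreated ones, and the value was 0.46 ± 0.12 (adjusted p = 0.109). SMARCA2 (BRM), the alternative ATPase, was dim, with 48.6 and 36 against 49.1 and 52.2, and stood at -0.28 ± 0.15 (adjusted p = 0.411). The difference between these paralogues was not tested, and the 6 probe sets of SMARCA2 gave values of both signs (-0.28 to 0.14). SMARCB1 (INI1), a core subunit, had 618.1 and 614.8 with TGF-beta and 511.2 and 530.3 without, a narrow spread around 0.24 ± 0.10. ARID1A had 281.0 and 203.5 against 190.6 and 184.1, at 0.35 ± 0.16 (95% interval -0.02 to 0.72). Its value was 0.12 without TGF-beta array 1 and 0.59 without TGF-beta array 2. The 3 other probe sets of ARID1A gave 0.06 to 0.31, with 0.06 ± 0.10 on the brightest of them. SMARCC1 and SMARCC2, scaffold subunits, stood at 0.17 and -0.13, SMARCD1, SMARCD2 and SMARCD3 at 0.20, 0.21 and 0.12, and SMARCE1 at -0.09.

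Probe sets of SMARCA4 ranked by brightness gave 0.46, 0.35, 0.38, 0.20, 0.31, 0.03 and -0.03. The last 2 were dim, with mean log2 intensities of 4.74 and 4.72. The probe set used for SMARCA4 is of a kind that can match more than 1 transcript, and the only one of the 7 without that mark is the dimmest, at -0.03. SMARCA1, an ISWI-type ATPase, was bright, with 2600.1 and 2458.1 after TGF-beta and 2923.7 and 2836.1 in untreated cells (-0.19 ± 0.11, adjusted p = 0.411). Its other probe sets gave -0.32, -0.06 and, on the dimmest (41.5 and 42.2 against 63.4 and 65.8), -0.63 ± 0.10. When each of the 19724 probe sets that name 1 gene was tested on its own, a fit chosen after seeing the data, that SMARCA1 probe set (adjusted p = 0.0484) and the one used for CHD9 (0.0464) were the 2 called among the members' 191, beside 0.887% called over all probe sets. SMARCA5, the other ISWI ATPase, stood at 0.05 ± 0.12 and SMARCAL1, an annealing helicase, at 0.20 ± 0.14.

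**Figure D2:**
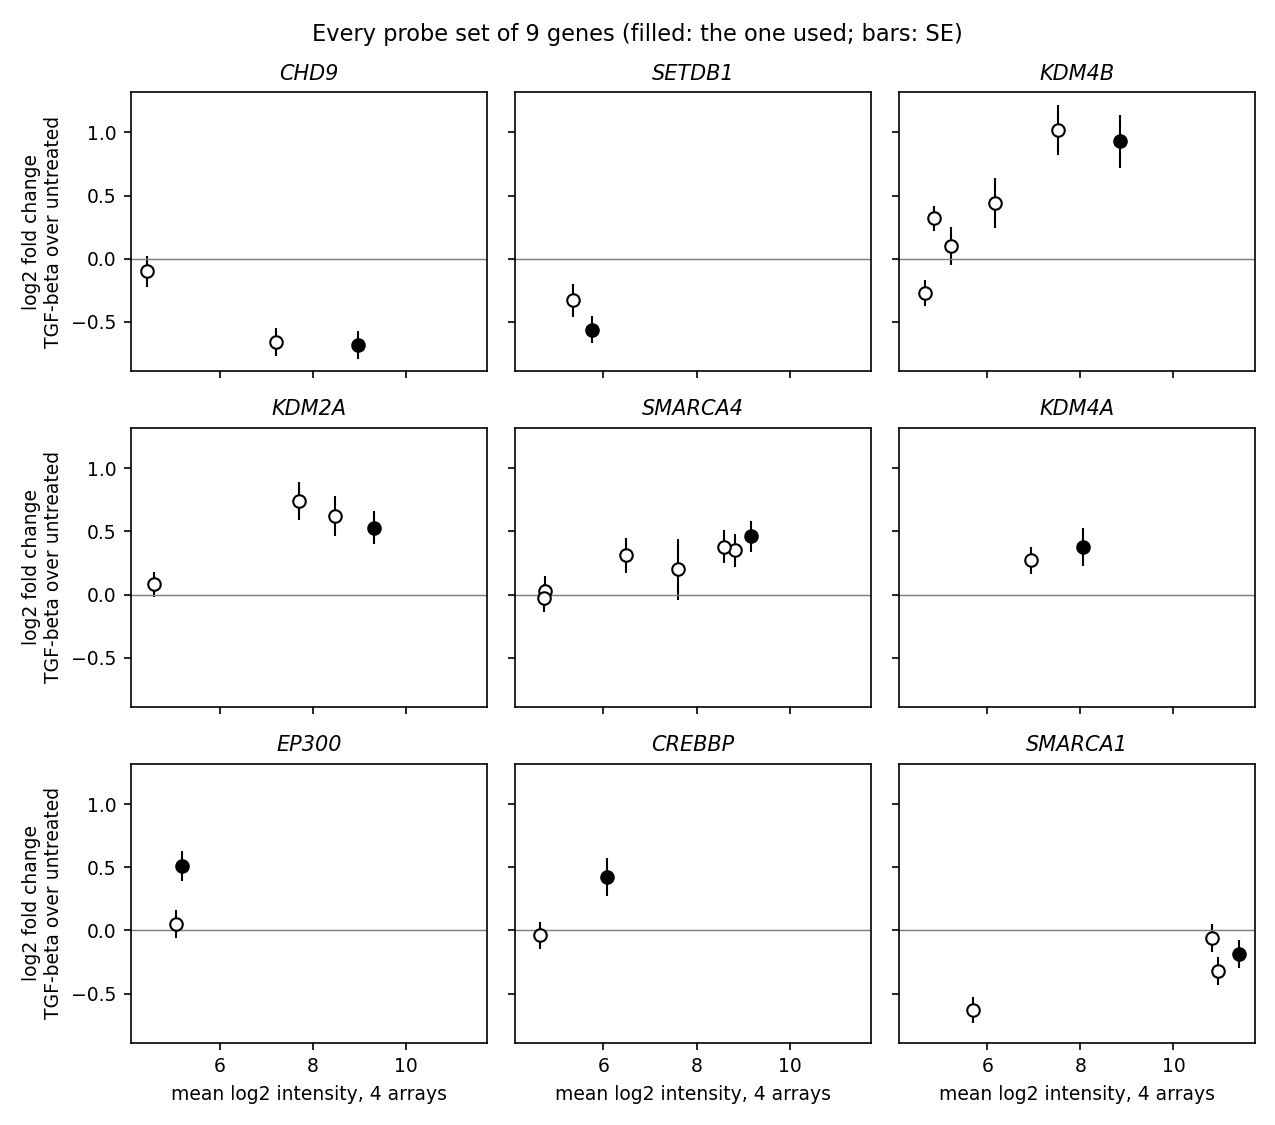
Log2 fold change (TGF-beta over untreated, y axis, bars SE) against mean log2 intensity over the 4 arrays (x axis) for every probe set of 9 genes, with the probe set used for the gene filled. The brighter probe sets of CHD9, KDM4B, KDM2A and SMARCA4 lie on one side of 0, and their dimmest lie near or across it. For SMARCA1 the dimmest of the 4 has the lowest value, -0.63.

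Lysine demethylases, which take methyl groups off histones, had 0 calls among 14 (limma), and include KDM4B, the member with the highest value. At an unadjusted p under 0.05, 3 were higher and 2 lower (35.7%, beside 18.0% of all genes). KDM4B, which acts on methylated lysine of histone H3, had 766.1 and 530.7 on the TGF-beta arrays and 391.1 and 286.3 on the untreated arrays. Replicates differed widely in both groups, and both treated values were above both untreated ones. Its value was 0.93 ± 0.21, a 1.91-fold difference in means (95% interval 0.44 to 1.42 on the log2 scale, adjusted p = 0.0738). Without TGF-beta array 1 the value of KDM4B was 0.67 and without untreated array 1 it was 1.16, where it passed the threshold (adjusted p = 0.0216). The next brightest of its 6 probe sets, with 328.9 and 209.1 against 128.3 and 129.6, gave 1.02 ± 0.20, and the 4 dimmer ones gave -0.27 to 0.44.

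KDM2A, a demethylase that binds CpG islands through a zinc finger, had 748.9 and 773.5 with TGF-beta and 475.6 and 585.5 without. Treated arrays were close together and above the untreated ones, at 0.53 ± 0.13 (adjusted p = 0.0927). Its next probe sets gave 0.62 ± 0.16 and 0.74 ± 0.15, and the dim one 0.08 ± 0.10. KDM4A, a relative of KDM4B, had 279.6 and 328.7 against 207.4 and 262.1, at 0.38 ± 0.15, with 0.27 ± 0.11 on its other probe set. On the lower side were KDM3A, another demethylase of histone H3, with 416.5 and 365.7 after TGF-beta and 527.6 and 466.7 in untreated cells (-0.35 ± 0.12, adjusted p = 0.202), and KDM7A, a demethylase with a PHD finger, with 53.5 and 55.2 against 64.2 and 68.6 (-0.29 ± 0.11). KDM1A (LSD1), the flavin-dependent demethylase of CoREST, had 388.4 and 409.4 against 409.7 and 476.5, at -0.15 ± 0.12 (adjusted p = 0.582). KDM6B (JMJD3) was dim, with 41.2 and 42.1 against 43.9 and 43.2, at -0.06 ± 0.10. On the probe sets used, the remaining 7 demethylases stood between -0.17 and 0.06. Other probe sets of KDM5B (0.06 on the one used) gave -0.35 ± 0.11, 0.05 ± 0.14 and, on a dim one, -0.01 ± 0.11. Those of KDM6A (-0.03 on the one used) gave -0.24 ± 0.14 and -0.31 ± 0.11.

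Methyltransferases whose symbols begin with KMT2, KMT5 or SETD, SETDB1 among them, had 0 calls among 13 (limma). At an unadjusted p under 0.05, SETD6 was higher and SETDB1, SETD3 and KMT2A were lower (30.8%, beside 18.0% of all genes). SETDB1, which methylates histone H3 to silence retroelements and other repeats, had 44.7 and 44.9 on the TGF-beta arrays and 69.5 and 62.4 on the untreated arrays. The treated arrays were nearly identical and clearly below the others. The value was -0.56 ± 0.11 (adjusted p = 0.0569), and it passed the threshold with median centring (-0.63, adjusted p = 0.0339), without untreated array 2 (-0.63, adjusted p = 0.0339) and with trended, robust moderation (adjusted p = 0.0485). Its other probe set gave -0.33 ± 0.13. Mean log2 intensities were 5.76 and 5.35, near the median of all probe sets (5.65).

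SETD3, known for methylating a histidine of actin rather than histones, had 144.1 and 132.8 after TGF-beta and 188.9 and 178.9 in untreated cells (-0.41 ± 0.11, adjusted p = 0.109). SETD6, which methylates the NF-kB subunit RELA, ran the other way, with 134.4 and 117.0 against 92.6 and 101.4 (0.37 ± 0.12, adjusted p = 0.165). KMT2A (MLL1) had 82.6 and 87.3 against 100.4 and 103.6, at -0.26 ± 0.11. Its 4 other, dimmer probe sets disagreed, at -0.18 to 0.22. SETD2, which methylates histone H3 along transcribed genes, had 424.4 and 435.7 against 371.1 and 515.1, so its treated arrays lay between the untreated ones (-0.02 ± 0.16).

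Limma called 0 of 9 acetyltransferases. At an unadjusted p under 0.05, 2 were higher and 0 lower (22.2%, beside 18.0% of all genes). These were the paralogous coactivators EP300 (p300) and CREBBP (CBP). EP300 had 45.5 and 42.2 with TGF-beta and 28.2 and 33.4 without, at 0.51 ± 0.12 (adjusted p = 0.0897). CREBBP had 75.2 and 80 with TGF-beta and 50.2 and 66.6 without, at 0.42 ± 0.15 (adjusted p = 0.201). Neither gene's groups overlapped, and untreated array 1 was the lowest for both. Their other probe sets, dimmer still, gave 0.05 ± 0.11 for EP300 and -0.04 ± 0.11 for CREBBP. Without untreated array 1 the values were 0.39 and 0.22, and without untreated array 2 they were 0.64 and 0.63, past the threshold (adjusted p of 0.0356 and 0.0358). KAT2A (GCN5) and KAT2B (PCAF) stood at -0.18 and 0.17, KAT5 (TIP60) at -0.20, KAT8 (MOF) at -0.19, KAT6A and KAT6B at 0.05 and 0.22 and KAT7 at -0.03. A dimmer probe set of KAT8 gave 0.33 ± 0.11, and those of KAT5 gave -0.09 and 0.24.

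Bromodomain proteins read acetylated lysines. Of 6 measured, limma called 0 and 2 were higher at an unadjusted p under 0.05 (33.3%, beside 18.0% of all genes). BRD2, of the BET family, had 718.1 and 746.2 against 487.4 and 634.7 (0.40 ± 0.14, adjusted p = 0.21), and its value was 0.21 without untreated array 1 and 0.59 (adjusted p = 0.0438) without untreated array 2. BRD9, a subunit of a SWI/SNF variant, had 83.4 and 63.5 against 53.8 and 55.8 (0.41 ± 0.15, adjusted p = 0.203), and it was 0.21 without TGF-beta array 1. BRD3 had 450.7 and 423.9 against 299.2 and 446.4, so its groups overlapped, at 0.26 ± 0.18. BRD7, also a subunit of a SWI/SNF variant, lay lower without overlap, with 240.0 and 189.0 against 247.7 and 273.8 (-0.29 ± 0.14).

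**Figure D3:**
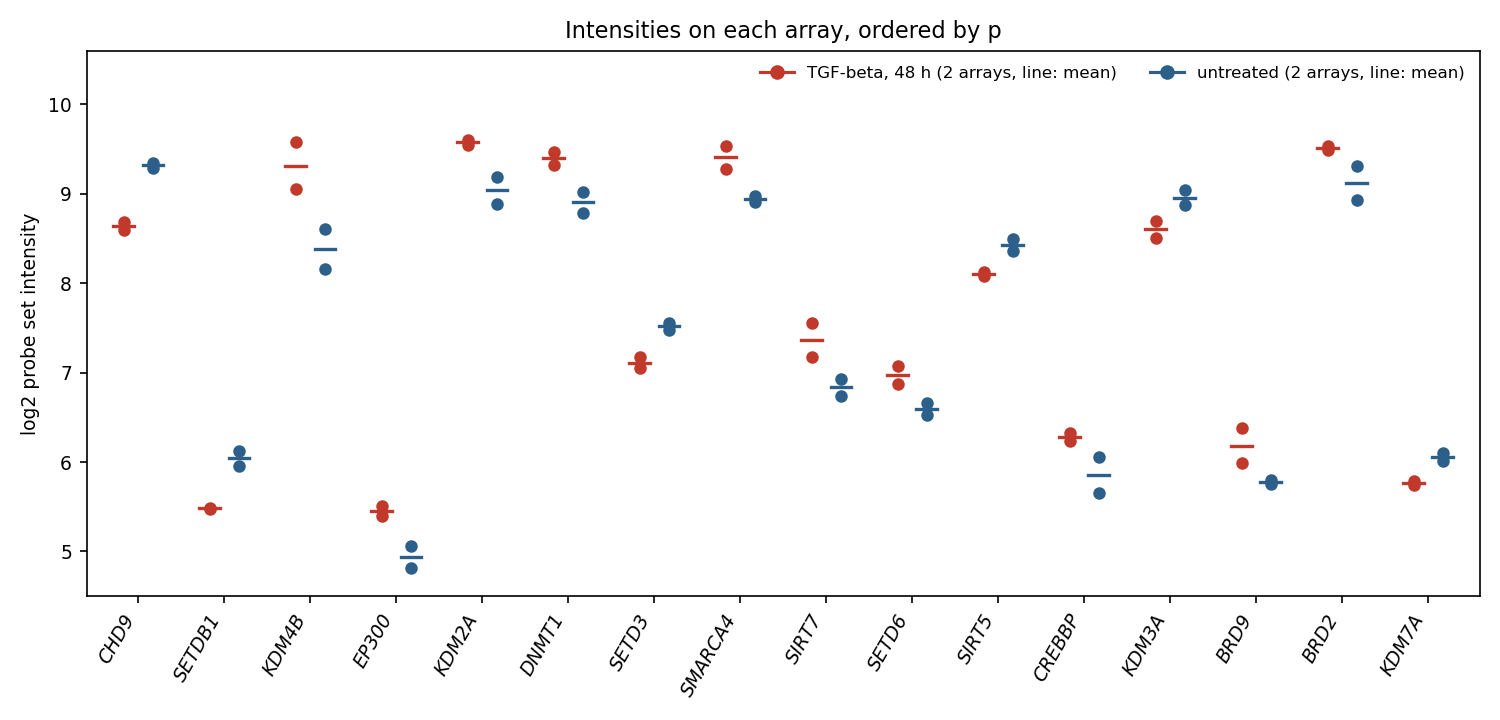
Log2 probe set intensity (y axis) on each of the 4 arrays for CHD9 and the 15 further chromatin genes with the smallest p, in order of p (x axis), with TGF-beta arrays in red, untreated arrays in blue and the group mean as a line. The groups do not overlap in any of the 16, which follows largely from choosing them by small p, and 49.1% of all genes do not overlap. KDM4B has the widest spread within groups.

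Deacetylases remove acetyl groups. Among the 9 zinc-dependent histone deacetylases limma called 0, and 0 had an unadjusted p under 0.05, beside 18.0% of all genes. With so few genes, that difference was not tested. HDAC1, the catalytic subunit of NuRD, SIN3 and CoREST, had 3418.9 and 3535.6 on the TGF-beta arrays and 3157.9 and 3021.1 on the untreated arrays, without overlap, at 0.17 ± 0.10 (95% interval -0.07 to 0.42). Its paralogue HDAC2 had 2042.4 and 2219.2 against 2276.7 and 2194.4, with overlap, at -0.07 ± 0.11 (-0.32 to 0.18). HDAC3, the enzyme of the NCOR complexes, stood at -0.15 ± 0.11. HDAC4, HDAC5, HDAC7 and HDAC9, of class IIa, lay between -0.14 and 0.04, with HDAC7 at 45.8 and 55.8 against 54.2 and 56.9. HDAC6, a deacetylase of tubulin, had 243.2 and 148.2 against 247.0 and 222.4. Its treated arrays were far apart, so -0.30 ± 0.22 rests on TGF-beta array 2, and without that array the value was 0.05. The 2 dimmer probe sets of HDAC6 gave 0.18 ± 0.11 and 0.02 ± 0.11. HDAC11, the class IV enzyme, stood at -0.11 ± 0.12.

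Sirtuins are deacylases that consume NAD. Limma called 0 of 7, and at an unadjusted p under 0.05 SIRT7 was higher and SIRT5 lower (28.6%, beside 18.0% of all genes). SIRT7, a nucleolar deacetylase, had 188.5 and 144.8 with TGF-beta and 122.2 and 106.9 without (0.53 ± 0.15, adjusted p = 0.123), and 0.34 without TGF-beta array 1. SIRT4, a mitochondrial sirtuin, had 47.1 and 43.7 against 62.9 and 49.8, without overlap, at -0.30 ± 0.14. SIRT5, a mitochondrial desuccinylase, had 271.5 and 280.5 with TGF-beta and 360.3 and 329.1 without (-0.32 ± 0.11, adjusted p = 0.188), and its 3 dimmer probe sets stood between -0.06 and 0.03. SIRT1, the best studied nuclear member, had 129.9 and 149.2 against 130.8 and 144.6, with full overlap, at 0.02 ± 0.12 (95% interval -0.27 to 0.30).

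PRC2, which places a repressive methyl mark on histone H3, had 0 calls among 4 (limma, 0 at an unadjusted p under 0.05, beside 18.0% of all genes). EZH2, its main catalytic subunit, had 728.9 and 641.0 after TGF-beta and 637.8 and 625.1 in untreated cells (0.11 ± 0.11, 95% interval -0.15 to 0.38), with -0.17 on a dimmer probe set. EZH1, the alternative enzyme, was dim, with 40 and 39.1 against 33.6 and 35.1 (0.20 ± 0.10, adjusted p = 0.364). EED had 731.5 and 868.8 against 745.4 and 667.3, and SUZ12 had 1015.5 and 990.7 against 810.0 and 1151.1, so both overlapped, at 0.18 ± 0.13 and 0.05 ± 0.17.

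DNA methyltransferases had 0 calls among 4 (limma), with 2 higher at an unadjusted p under 0.05 (50%, beside 18.0% of all genes). DNMT1, which copies methylation onto new DNA strands, had 709.0 and 638.2 on the TGF-beta arrays and 443.0 and 519.1 on the untreated arrays, well apart, at 0.49 ± 0.13 (95% interval 0.20 to 0.78, adjusted p = 0.101). DNMT3A, a de novo enzyme, had 74.1 and 59.1 against 52.7 and 53.3, at 0.32 ± 0.13. DNMT3B, the other de novo enzyme, had 83.6 and 84.7 between untreated values of 65.3 and 102.0, at 0.04 ± 0.20, so its value is set by the wide untreated spread (-0.28 without untreated array 1 and 0.37 without untreated array 2). DNMT3L, a catalytically inactive relative, was dim, at -0.06 ± 0.16. Of the 5 ARID proteins outside SWI/SNF limma called 0 (0 at an unadjusted p under 0.05, beside 18.0% of all genes). The smallest p was that of ARID3B, a DNA-binding protein, with 160.7 and 154.5 against 139.8 and 132.8 (0.21 ± 0.11), and ARID3A had 173.7 and 282.3 against 141.1 and 198.7, with overlap, at 0.40 ± 0.25.

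Of the pseudogenes and the opposite-strand transcript, BRD3OS had the smallest p, with 465.8 and 474.4 against 382.8 and 396.9 (0.27 ± 0.10, adjusted p = 0.235). Its 2 other probe sets gave -0.22 and -0.19, and the mean of all 3 was -0.05. SUZ12P1 stood at 0.13, SMARCE1P2 at 0.21 and BRD7P3 at 0.03. Because pseudogenes resemble their parent genes, a contribution of SUZ12, SMARCE1 and BRD7 transcripts was not tested.

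Probe sets of one gene often disagreed. Of 48 members with more than 1 probe set, all others had the sign of the one used in 23. For the 13 such genes among the 22 at an unadjusted p under 0.05, 21 of 32 other probe sets had the same sign. Of those brighter than the median probe set (log2 intensity 5.65), 14 of 17 did.

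**Figure D4:**
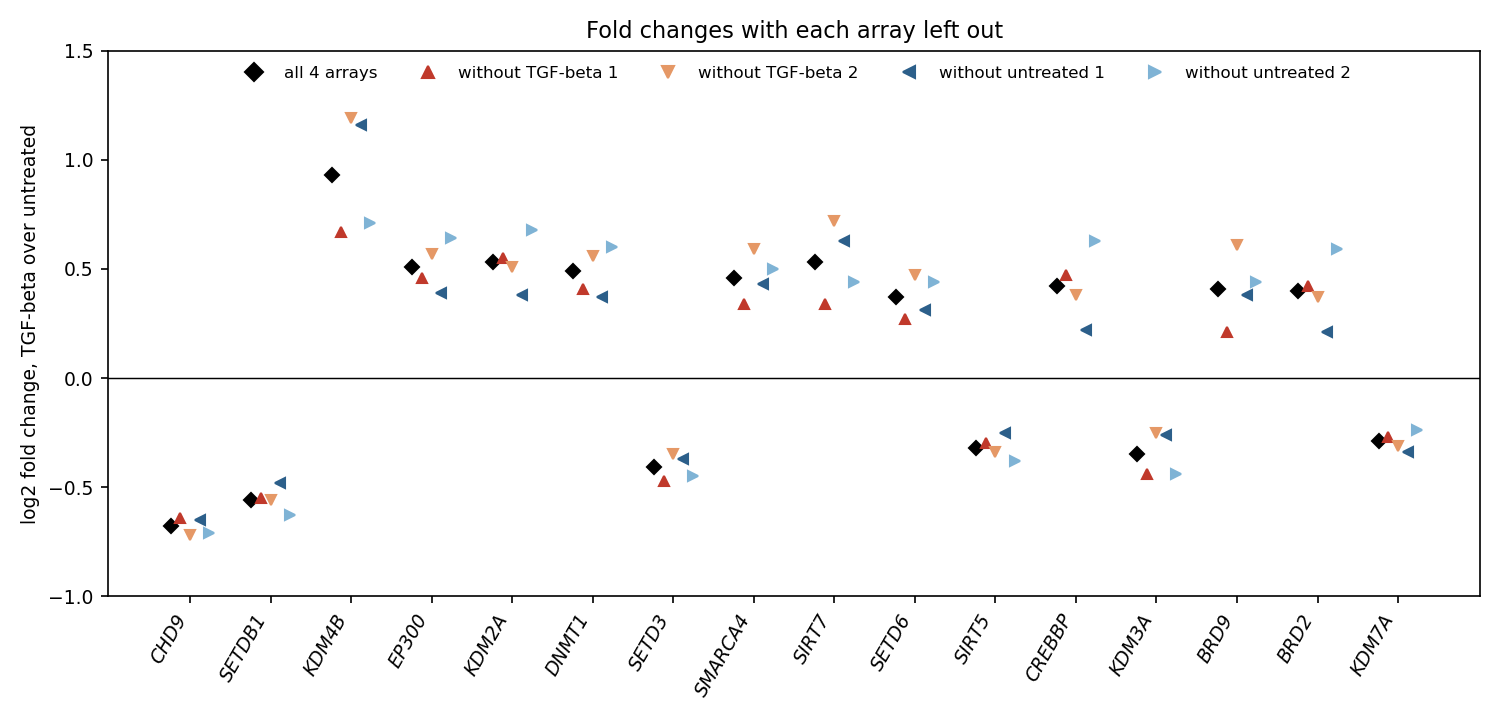
Log2 fold change (TGF-beta over untreated, y axis) of CHD9 and the 15 further genes with the smallest p (x axis), with all 4 arrays and with each array left out in turn. CHD9 stays between -0.72 and -0.64, while KDM4B ranges from 0.67 to 1.19 and CREBBP from 0.22 to 0.63.

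Partner proteins of these enzymes that the rule leaves out were examined from a list of 98, of which 77 were measured. It holds subunits of NuRD, SIN3, CoREST, Polycomb, COMPASS, acetyltransferase and remodelling complexes, other methyltransferases and DNA methylation factors. Limma called 0 of the 77, where 1.22% of all genes were called. At an unadjusted p under 0.05, 16 were higher and 1 lower, together 22.1% beside 18.0% of all genes (9.35% higher and 8.60% lower). The list was drawn up with earlier results of these data known, so these counts are a description and were not tested. Partner counts with 1 array left out were not examined. Under quantile normalization 15 were higher and 1 lower. With median centring, which moved all genes down together (700 of 12165 higher and 1755 lower), 7 partners were higher and 1 lower. The partners' median log2 fold change was 0.08, against -0.0062 over all genes, and with median centring it was 0.0075 against -0.08. RSF1, the partner of SMARCA5 in the RSF remodeller, had 39.1 and 37.4 after TGF-beta and 56.9 and 53.6 in untreated cells (-0.53 ± 0.11, adjusted p = 0.0582). BCL7C, a SWI/SNF subunit, had 164.8 and 172.6 against 120.6 and 112.3 (0.54 ± 0.11, adjusted p = 0.0584). GATAD2A, a NuRD subunit, had 412.5 and 361.6 against 218.9 and 289.1 (0.62 ± 0.15, adjusted p = 0.0958). In these 3 genes, named for the smallest p among the partners, both TGF-beta arrays lay outside the untreated range. The groups did not overlap in 39 of the 77 partners (50.6%) and in 49.1% of all genes.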

How the data were processed

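RNA was measured on 4 Affymetrix arrays of Huh-7 cells, 2 treated with TGF-beta and 2 untreated, grouped by their titles. The authors deposited 1 intensity per probe set, not log-transformed. The authors' processing used the affy package, per the submitters' processing notes, and the background correction and summary method were not stated there. Array medians over all probe sets were nearly equal, and no scaling was added. Over the fitted genes they were less alike. Centring each array on that median moved the median log2 fold change of all genes from -0.0062 to -0.08.

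Of 22215 probe sets, 19724 name 1 gene in the platform annotation. Symbols were updated by Entrez number through RefSeq (GRCh38.p14), and the rule chose the same 97 members by platform and by current symbol. Probe sets naming several genes (568) or none (1923) were left out. Log2 intensities with no offset of 12165 genes, each by its brightest probe set, were fitted with limma 3.58.1 (lmFit, eBayes, R 4.3.3), with Benjamini-Hochberg adjustment over all genes and a call at an adjusted p under 0.05. Each gene was tested on 7.41 degrees of freedom (5.41 of them prior). Standard errors and intervals come from that fit, and those of probe sets other than the one used come from a fit over all 19724. The number of arrays limits precision.

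The fit was tested on simulated data for 12165 genes. It called 11% of simulated log2 changes of 0.5, 90.7% at a size of 1 and 99.4% at 1.5, with 4.45% of calls false. Each of 20 runs had 200 changed genes and independent normal noise, with spreads drawn from the fit's own prior. The assumptions of the fit held there by construction, so these rates check the code and are not error rates for the real arrays.

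Members, roles and lists were chosen with earlier results of these data known. Named genes are all called members, the 15 further members with the smallest p, the smallest p in each role, a fixed list of names and the 3 partners with the smallest p, and others were named after their values were seen. A planned comparison of paralogue proteins was not run. Alternatives covered normalization, centring, offset, probe set choice, dim genes, moderation, a replicate block and each array left out. Figures used Python 3.11.15 and matplotlib 3.10.9. Promoters were matched by gene number for 82 of the 97 members.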

Additional observations from a re-analysis of the deposited data

How the results depend on the processing

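All values here concern TGF-beta over untreated. Over all genes 149 were called (80 higher, 69 lower), against 63 under quantile normalization, 311 with median centring (93 higher, 218 lower, so that 29.9% of calls were higher, against 53.7%), 76 with dim genes left out and 632 with trended, robust moderation. Chromatin genes called numbered 1, against 0, 2, 0 and 6 under those settings and 0 with the mean of all probe sets (at an unadjusted p under 0.05: 22, 22, 20, 19 and 17, in the same order). With 1 array left out the counts ran from 0 to 523 over all genes and from 0 to 7 among chromatin genes. In these fits the lone array of a group is assumed to vary like the other group. Both counts were 0 without either TGF-beta array, so those fits do not bear on single genes (13 and 14 chromatin genes at an unadjusted p under 0.05). They were 345 and 2 without untreated array 1, and 523 and 7 without untreated array 2. The replicate numbers share no stated source, and the correlation of same-numbered deviations was 0.00966. With the number as a replicate block 1229 genes and 13 chromatin genes were called (10 higher, 3 lower). In that fit the SE was 0.13 or 0.14 for every named gene, also for KDM4B, whose SE was 0.21 without the block. A gene's own spread thus hardly entered, and the larger counts do not show that more genes changed. The members' median of 0.04 was -0.03 with median centring, which moved all genes to -0.08, and -0.01 to 0.05 with 1 array left out. The -0.01 came without untreated array 1, where the median over all genes was -0.0026. Of 360 values for 31 named genes under 12 alternatives, 316 kept direction and side, 24 passed the threshold in addition, 5, all of CHD9, missed it and 15 reversed. Reversals were SIRT1 (-0.01 quantile, -0.06 centring, -0.08 to 0.12 with 1 array left out, and -0.05 without untreated array 1), DNMT3B (-0.0060 quantile, -0.03 centring, -0.28 to 0.37 with 1 array left out), BRD3OS (-0.05), KDM6B (0.01) and EZH2 (-0.03) with the mean of all probe sets, SMARCA4 (-0.03), EZH2 (-0.17) and SMARCA2 (0.09) on probe sets unlikely to match other transcripts, HDAC7 (0.0073 without TGF-beta array 1) and HDAC6 (-0.66 to 0.05 with 1 array left out). The causes were not tested, except that other probe sets or fewer arrays enter by construction. An offset of 16 gave 167 and 1 calls. Intensities near background limit the decreases that dim genes can show.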

Other observations

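Probe sets that name a chromatin gene together with another gene stood outside every comparison. One names CHD9 and LSM6, with intensities of 1202.8 and 1583.5 on the TGF-beta arrays and 1339.3 and 1260.5 on the untreated arrays, a log2 difference of 0.09. It does not show the decrease of the CHD9 probe sets, and the share of each gene in its signal is unknown. One of those that name MRPL43 and SMARCA4 had 165.8 and 151.5 with TGF-beta and 132.1 and 125.6 without (0.30), and the other, dim one had 21.7 and 21.8 with TGF-beta and 23.8 and 21 without (-0.04). The probe set that names SUZ12P1 and SUZ12 had 212.9 and 153.6 with TGF-beta and 146.0 and 208.2 without (0.05), so its groups overlapped.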
